A study of Mus musculus with 8 samples.

Results

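The 9 Hedgehog pathway genes Gli1, Gli2, Gli3, Ptch1, Smo, Hhip, Ihh, Dhh and Gas1 were measured by RNA-seq in 7 sorted populations of mouse bone marrow stromal cells and in 1 library of input bone marrow cells. They were taken as a named list, and all 9 were found by symbol among the 49315 Ensembl genes counted. The study sorted mesenchymal stromal cells into clusters 1 to 7 to ask how the subpopulations of these cells differ. All 8 libraries came from wild type C57BL/6J mice of 6 weeks by the labels, with no treatment in the labels. The paper's Methods list C57BL/6JJcl mice. Each population had 1 library, so the spread between sorts could not be measured and no p-value is given. By the study's sorting scheme all 7 populations lacked CD31, CD45 and Ter119, which mark endothelial and blood cells. The further gates were CD24- CD39+ Sca-1+ for cluster 1, Ly-6C- CD24- CD39- for cluster 2, Ly-6C+ CD24+ and CD39 and CD54 negative for cluster 3, Ly-6C- CD24- CD54+ for cluster 4, CD54+ CD121b- and CD24 and Ly-6C negative for cluster 5, CD24+ Sca-1- CD39- for cluster 6, and CD54- Sca-1+ and CD24 and Ly-6C negative for cluster 7. The sorted libraries held between 12833648 (cluster 5) and 33238133 (cluster 7) counted reads, with a median of 27102715, and the input held 20162876. Levels are given as RPKM, the reads per kilobase of exon, scaled to the total of counted reads in the usual way, with exact 95% Poisson intervals of the count. These intervals, and the intervals of ratios between 2 libraries, cover counting error only.

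Hedgehog ligands are secreted proteins that bind the receptor Ptch1, which otherwise holds the membrane protein Smo inactive. Gas1, Boc and Cdon are surface co-receptors that help the ligand to bind, and Hhip is a membrane protein that binds and sequesters it. Active Smo acts through the primary cilium on the transcription factors Gli2 and Gli3, and Gli1, Ptch1 and Hhip are transcribed in response, so that the last 2 restrain the signal. In the growth plate of bone, Indian hedgehog (Ihh) is made by chondrocytes that are about to enlarge, and it controls cartilage growth in a loop with parathyroid hormone-related protein. In bulk libraries, fewer cells of a type and less RNA per cell cannot be told apart.

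The genes are given with their Ensembl identifiers and GRCm38 positions. Ihh (ENSMUSG00000006538, chromosome 1 from 74945315 to 74951672), a ligand, had high levels in 2 of the 7 sorted populations. Ihh RPKM was 0.488, 17.0, 0.278, 0.504, 0.332, 12.2 and 0.148 in clusters 1 to 7, in that order, and 0.700 in the input. Clusters 2 (95% interval 16.1 to 18.0, 1316 reads) and 6 (11.5 to 12.9, 1180 reads) stood apart from the other 5, which rested on 13 to 50 reads each. Cluster 6 exceeded cluster 4, the next library, 24.3-fold (95% interval 18.3 to 32.9), and the highest library exceeded the lowest 115-fold (69.5 to 206). Cluster 2 exceeded cluster 6 1.39-fold (1.29 to 1.51) by the total count, but 1.09-fold with edgeR's TMM scaling, which sets the libraries to a common level over most genes. Among the 5 low libraries, no neighbours in the order of levels differed beyond counting error, but cluster 4 exceeded cluster 7 3.40-fold (1.88 to 6.53) and cluster 3 1.81-fold (1.08 to 3.11), and cluster 1 exceeded cluster 7 3.30-fold (1.76 to 6.48).

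Ptch1 (ENSMUSG00000021466, chromosome 13 from 63508328 to 63573598), the receptor and itself a target of the pathway, was highest in the same 2 populations. Ptch1 RPKM was 1.00, 7.81, 1.00, 2.62, 0.998, 4.16 and 1.22 in clusters 1 to 7, in that order, and 2.13 in the input. Cluster 2 exceeded cluster 6 1.88-fold (95% interval 1.74 to 2.02), cluster 6 exceeded cluster 4 1.59-fold (1.45 to 1.74), and cluster 4 exceeded cluster 7 2.15-fold (1.89 to 2.45). Clusters 1, 3 and 5 did not differ beyond counting error by the total count, although cluster 5 was 1.35 and cluster 1 0.907 with TMM scaling. Cluster 4, where Ihh was low, was the third in the order.

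Hhip (ENSMUSG00000064325, chromosome 8 from 79965851 to 80058006), the ligand-binding inhibitor, was highest in clusters 6, 2, 3 and 4. Hhip RPKM was 2.38, 6.34, 6.09, 5.76, 1.30, 7.86 and 4.57 in clusters 1 to 7, in that order, and 1.93 in the input. Cluster 6 exceeded cluster 2 1.24-fold (95% interval 1.16 to 1.33), clusters 2 and 3, and clusters 3 and 4, did not differ beyond counting error, although cluster 2 exceeded cluster 4 1.1-fold (1.02 to 1.18), and cluster 1 exceeded cluster 5 1.83-fold (1.53 to 2.21). The ratio of cluster 2 to cluster 3, where Ihh and Ptch1 were low, was 1.04 (0.969 to 1.12).

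Ptch1, Hhip and Ihh were the 3 of the 7 members above RPKM 2 whose levels in clusters 2 and 6 both lay above those of the other 5 sorted libraries. The pair of clusters was chosen after the values were seen. Of all 12360 genes above RPKM 2 in at least 1 sorted library, 5.99% had this pattern, and with TMM scaling the same 3 members had it against 10.6% of 12682 genes. The plot of levels by library shows the difference between the steep contrast of Ihh and the shallow contrast of Hhip.

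**Figure D1:**
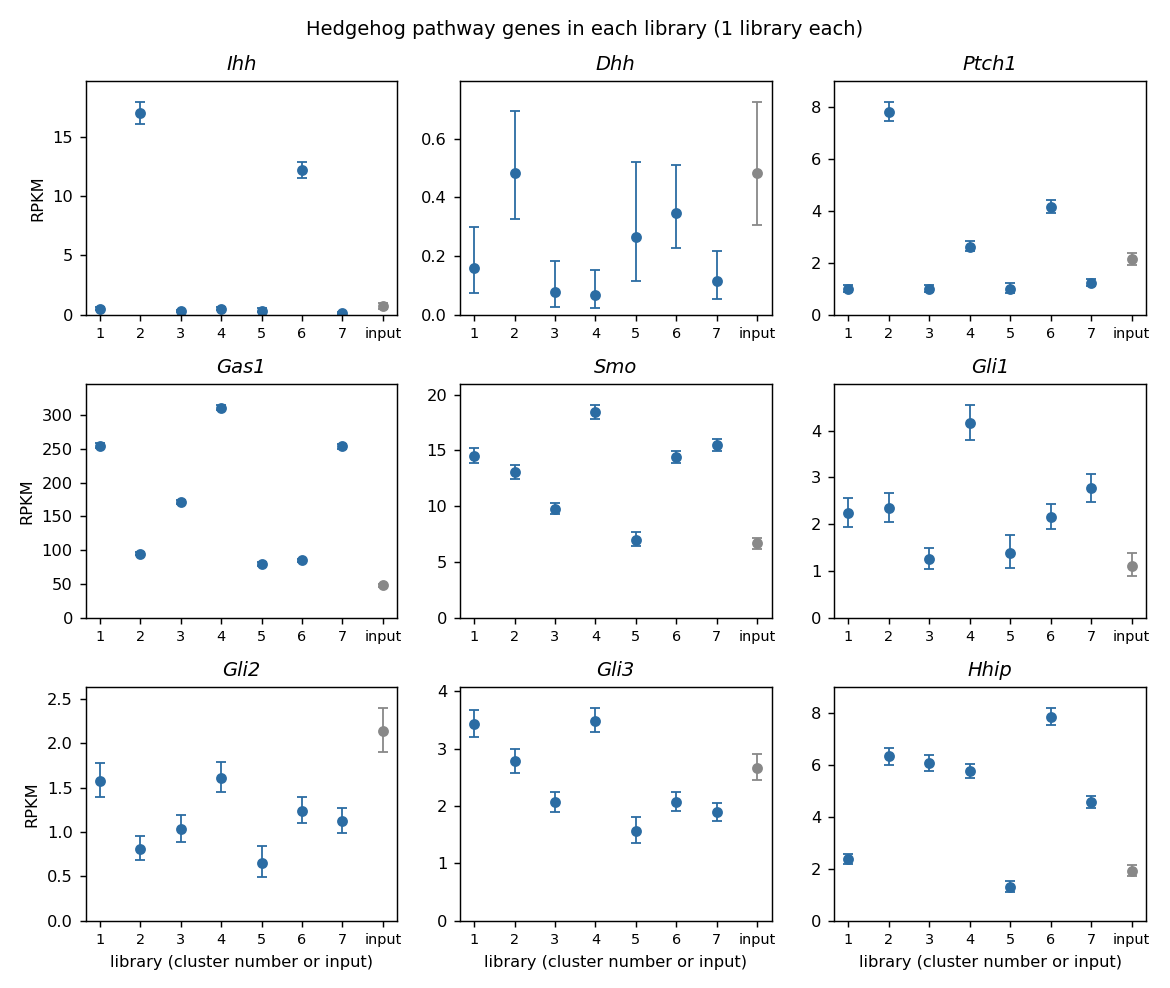
RPKM of the 9 Hedgehog pathway genes (1 panel each, vertical axes linear from 0) in the sorted libraries of clusters 1 to 7 (blue) and the input (grey), with exact 95% Poisson intervals of the count as bars. Ihh stood at 17.0 in cluster 2 and 12.2 in cluster 6 and at or below 0.504 in the other sorted libraries, whereas Gas1, Smo, Gli1, Gli2 and Gli3 had their highest sorted level in cluster 4.

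Promoter sequence is shown for these 3 members because, of those above RPKM 2, they had the same 2 highest libraries. The 250 bases before the RefSeq start (GRCm38.p6) are written 5' to 3' on the strand of the gene, with capitals for each GC box, the letters GGGCGG or their reverse complement CCGCCC, which is the usual binding sequence of Sp1.
Ihh, chr1:74951673-74951922, minus strand: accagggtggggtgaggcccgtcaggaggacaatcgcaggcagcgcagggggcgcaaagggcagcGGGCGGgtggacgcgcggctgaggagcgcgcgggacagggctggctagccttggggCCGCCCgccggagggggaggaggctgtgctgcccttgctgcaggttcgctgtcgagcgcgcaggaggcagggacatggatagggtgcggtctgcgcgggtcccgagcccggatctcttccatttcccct
Ptch1, chr13:63565736-63565985, minus strand: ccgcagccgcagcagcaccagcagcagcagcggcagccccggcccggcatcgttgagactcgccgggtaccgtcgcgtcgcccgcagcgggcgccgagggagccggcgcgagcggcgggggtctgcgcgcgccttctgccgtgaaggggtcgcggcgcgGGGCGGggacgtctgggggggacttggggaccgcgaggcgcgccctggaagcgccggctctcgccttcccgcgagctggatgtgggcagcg
Hhip, chr8:80058009-80058258, minus strand: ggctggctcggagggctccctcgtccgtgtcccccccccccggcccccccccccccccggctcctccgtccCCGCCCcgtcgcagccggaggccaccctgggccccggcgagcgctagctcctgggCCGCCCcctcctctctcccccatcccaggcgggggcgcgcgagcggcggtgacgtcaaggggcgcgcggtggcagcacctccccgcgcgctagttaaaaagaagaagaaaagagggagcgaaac
These windows held 2 GC boxes for Ihh, 1 for Ptch1 and 2 for Hhip. A start site was listed for 8 of the 9 members, all but Gli1, and a GC box was found in 7 of the 8 windows, all but that of Smo, against 32.7% of 32851 promoters. The GC box was searched after the values were seen. The share of G and C in the 8 windows was 58.8% (Gas1) to 78.4% (Ptch1). Promoters of a like share were not taken as background, so the excess over 32.7% cannot be told apart from base content. The Gli binding sequence GACCACCCA, and its core CCACCCA, which lies within it, were found on either strand in 0 of the 8 promoters of 300 bases, against 0.253% and 9.30% of all 32851. The start used for Ptch1 lies within the counted gene, which runs from 63508328 to 63573598 on chromosome 13, so its window lies inside that span. A match describes letters only, and no match says only that the letters are not in these windows.

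The 2 other ligands were low. Dhh (ENSMUSG00000023000, chromosome 15 from 98893031 to 98898540), desert hedgehog, rested on 5 to 29 reads per sorted library. Its RPKM was 0.157, 0.484, 0.0781, 0.0650, 0.264, 0.347 and 0.115 in clusters 1 to 7, in that order, and 0.483 in the input. Clusters 2 and 6 were again the highest. No neighbours in the order differed beyond counting error, but cluster 2 exceeded clusters 1, 3, 4 and 7 by 3.08-fold (95% interval 1.42 to 7.39) to 7.45-fold (2.85 to 24.6), and cluster 6 exceeded the same 4 by 2.21-fold (1.00 to 5.36) to 5.34-fold (2.02 to 17.8). The value of cluster 3 lay within the background of silent genes described with the input. Shh, sonic hedgehog, had 0 reads in all 7 sorted libraries, which allows up to 0.0317 (cluster 7) to 0.0821 (cluster 5) RPKM at 3 counts, or 0.0390 to 0.101 by the upper end of the 95% interval used for the other levels, and 5 reads in the input.

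Gas1 (ENSMUSG00000052957, chromosome 13 from 60174405 to 60177365), the co-receptor, was the most abundant member per length in each sorted library and was low where Ihh was high. Gas1 RPKM was 255, 94.8, 172, 311, 78.7, 84.8 and 254 in clusters 1 to 7, in that order, and 47.7 in the input. Clusters 1, 4 and 7 were highest, cluster 3 was intermediate, and clusters 2, 5 and 6 were lowest. Cluster 4 exceeded cluster 1 1.22-fold (95% interval 1.20 to 1.24), and clusters 1 and 7 did not differ beyond counting error. Cluster 3 exceeded cluster 2, the next library, 1.81-fold (1.76 to 1.86). With TMM scaling the 3 low values became 95.3, 106 and 109 in clusters 2, 5 and 6, so that the lowest library was no longer cluster 5. The level of Ihh relative to Gas1 within a library, which no scaling changes, was 0.180 in cluster 2 and 0.144 in cluster 6, and at most 0.00422 (cluster 5) in the other sorted libraries.

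Smo (ENSMUSG00000001761, chromosome 6 from 29735503 to 29761365), the signal transducer, varied less. Smo RPKM was 14.5, 13.0, 9.75, 18.4, 7.0, 14.4 and 15.5 in clusters 1 to 7, in that order, and 6.65 in the input. Cluster 4 exceeded cluster 7 1.19-fold (95% interval 1.13 to 1.25), and the highest library exceeded the lowest 2.63-fold (2.39 to 2.89). With TMM scaling clusters 4 and 6 came to 18.9 and 18.6, and clusters 3 and 5 to 9.91 and 9.46.

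Gli1 (ENSMUSG00000025407, chromosome 10 from 127329889 to 127341589), the transcription factor that is itself a target, was highest in cluster 4, not in the populations with high Ihh and Ptch1. Gli1 RPKM was 2.23, 2.34, 1.25, 4.16, 1.38, 2.15 and 2.77 in clusters 1 to 7, in that order, and 1.11 in the input. Cluster 4 exceeded cluster 7 1.5-fold (95% interval 1.31 to 1.73). Clusters 7, 2, 1 and 6 followed in that order with no neighbours that differed beyond counting error, but cluster 7 exceeded cluster 1 1.24-fold (1.04 to 1.48) and cluster 6 1.28-fold (1.09 to 1.52). Clusters 5 and 3 were lowest. With TMM scaling cluster 6 (2.78) passed cluster 7 (2.67). The exons of Gli1 share 55 of 3665 bases with Arhgap9 on the opposite strand, those of Gli3 188 of 9589 and those of Hhip 175 of 9076 with unnamed genes. Since the strand setting of the counting is not given in the sources used here, reads there cannot be assigned to either gene.

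Gli3 (ENSMUSG00000021318, chromosome 13 from 15463235 to 15730026), which in the absence of ligand is cut to a repressor, was highest in clusters 4 and 1. Gli3 RPKM was 3.43, 2.78, 2.06, 3.49, 1.57, 2.07 and 1.89 in clusters 1 to 7, in that order, and 2.67 in the input. Clusters 4 and 1 did not differ beyond counting error (ratio 1.02, 95% interval 0.927 to 1.12), and the highest library exceeded the lowest 2.22-fold (1.91 to 2.60). Gli2 (ENSMUSG00000048402, chromosome 1 from 118834132 to 119053619), the main activator, was low. Gli2 RPKM was 1.58, 0.810, 1.03, 1.61, 0.647, 1.24 and 1.13 in clusters 1 to 7, in that order, and 2.14 in the input. Gli2 thus lay below RPKM 2 in all 7 sorted libraries, and its highest library exceeded its lowest 2.49-fold (1.88 to 3.35). The level of Gli1 relative to Gli2 within a library ranged from 1.21 in cluster 3 to 2.88 in cluster 2, with 2.58 in cluster 4.

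With the RPKM threshold of the study's Methods, 7 of the 9 members, all but Gli2 and Dhh, had RPKM above 2 in at least 1 sorted library. Of these 7, Gli1, Ptch1, Smo, Hhip, Ihh and Gas1 had a highest over lowest RPKM + 1 above 2-fold, which is 6 members against a background of 70.6% of 12360 genes. The 1 was added here to damp low values, and with 0.1 in its place all 7 passed, Gli3 included, against 84.6% of the same genes. The median ratio of RPKM + 1 was 3.86 over these 7 and 2.42 over all 9 members, against 2.39 over the 12360 genes. Ihh had the largest ratio of the members, 15.7, and Dhh the smallest, 1.39. With TMM scaling 5 of these 6 passed, all but Smo, against 56.8%. Gli1, Gli3, Smo and Gas1, 4 of the 7, were highest in cluster 4, against 8.95% of 12360 genes, and the same 4 were highest there with TMM scaling, against 10.4%. Cluster 4 was picked for this count, and cluster 5 for the next, after the values were seen. Gli3 in cluster 4 did not exceed cluster 1 beyond counting error by the total count. Gli3, Ptch1, Smo, Hhip and Gas1 were lowest in cluster 5, against 46.3% of all genes, but with TMM scaling Smo and Hhip alone of the 7 were, against 26.4%.

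Cluster 5 differed from the other libraries in composition. Rn18s-rs5, mmu-mir-689-2 and Lars2, 3 loci, took 34.8% of its counts, 10.4% in cluster 2 and at most 1.91% in the other sorted libraries, and Hba-a1, a haemoglobin gene, had an RPKM of 30376 in cluster 5 and 592.9 to 5607 in the others. With the 3 loci left out of the totals, Smo in cluster 5 went from 7.0 to 10.7 RPKM, Gli3 from 1.57 to 2.41 and Gas1 from 78.7 to 121, and Hhip alone of the 7 members above RPKM 2 was lowest in cluster 5, against 16.1% of 12920 genes. The part of haemoglobin in the low levels of the members in cluster 5 was not tested. Relative to the total count, the log2 values with TMM scaling were higher by 0.435 (cluster 5) and 0.366 (cluster 6), whereas those of cluster 1 fell by 0.143 and those of the input by 0.675. Leaving out cluster 5, 5 of the members, all of the 6 but Smo, passed 2-fold between sorted libraries, against 52.1% of 12104 genes.

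Ratios within a library do not depend on scaling. Ptch1 relative to Smo was 6.90%, 59.9%, 10.3%, 14.2%, 14.3%, 28.9% and 7.88% in clusters 1 to 7, in that order. The intervals of cluster 2 (56.1% to 64.0%) and cluster 6 (26.9% to 31.0%) overlapped neither each other nor those of the other 5 sorted libraries. In the input, where Ptch1 lay within the background of silent genes, the ratio was 32.0% (28.2% to 36.2%), which overlapped the interval of cluster 6. Hhip relative to Smo was 0.164, 0.487, 0.624, 0.313, 0.185, 0.546 and 0.296 in clusters 1 to 7, in that order, so it was highest in cluster 3. Gli1 relative to Smo stayed between 0.128 (cluster 3) and 0.226 (cluster 4). Of the 3 genes that respond to the pathway, Ptch1 thus separated clusters 2 and 6 from the other sorted libraries, Hhip separated clusters 2, 3 and 6, and Gli1 did neither.

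**Figure D2:**
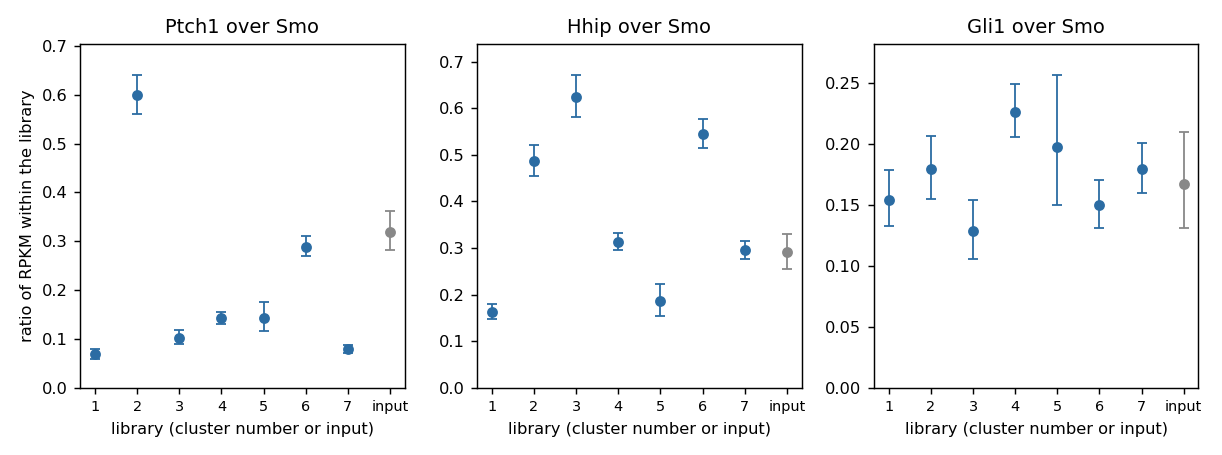
RPKM of Ptch1, Hhip and Gli1 divided by that of Smo in the same library (vertical axes linear from 0) for the sorted libraries of clusters 1 to 7 (blue) and the input (grey), with exact 95% intervals from the counts as bars. Ptch1 over Smo was highest in cluster 2 (0.599), Hhip over Smo in cluster 3 (0.624) and Gli1 over Smo in cluster 4 (0.226).

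Each sorted library was also set against the input. Reads on 991 olfactory receptor genes, which marrow cells do not use, measured the background. Their 95th percentile was 2.76 RPKM in the input and 0.00892 (cluster 6) to 0.245 (cluster 5) RPKM in the sorted libraries. In the input, 7 of the 9 members, all but Smo and Gas1, lay within this background, so their ratios to the input have a denominator that cannot be told apart from it. Above the input by 2-fold in RPKM + 1 were Smo and Gas1 in cluster 1 (background 5.53% of all genes tested), Ptch1, Hhip and Ihh in cluster 2 (7.06%), Hhip and Gas1 in cluster 3 (4.33%), Gli1, Smo, Hhip and Gas1 in cluster 4 (4.68%), Smo, Hhip and Ihh in cluster 6 (3.82%) and Smo and Gas1 in cluster 7 (3.43%). No member passed in cluster 5 (3.21%). None was below the input by 2-fold in any sorted library, where the shares of all genes tested were 41.6%, 47.9%, 46.5%, 45.5%, 61.0%, 53.6% and 39.4% for clusters 1 to 7. This call needs an RPKM above 2 in the input. Gli1 (1.11), Hhip (1.93), Ihh (0.700) and Dhh (0.483) therefore could not pass it, and Gli2 (2.14) and Ptch1 (2.13) were barely above that threshold. The absence of calls is thus not a contrast with these shares. With TMM scaling the counts above the input were 2, 5, 3, 4, 2, 6 and 4 for clusters 1 to 7, against 13.4%, 16.7%, 13.8%, 14.3%, 12.5%, 14.4% and 10.1% of all genes tested. Gas1 exceeded the input 6.52-fold in cluster 4 (95% interval 6.27 to 6.77) and 1.65-fold in cluster 5 (1.57 to 1.74), and Smo exceeded it 2.77-fold in cluster 4 (2.55 to 3.0). These ratios depended on the scaling by more than their intervals, and with TMM scaling they were 10.7, 3.56 and 4.53, so that Gas1 in cluster 5 passed 2-fold.

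The populations with high Ihh were those with the highest levels of chondrocyte genes. The summed RPKM of 6 chondrocyte markers (Col2a1, Acan, Sox9, Matn3, Col9a1 and Col10a1) was 288, 10908, 201, 3423, 213, 12737 and 293 in clusters 1 to 7, in that order, and 164 in the input. Col2a1, the main collagen of cartilage, was the most abundant of the 6 in all 8 libraries, and none of the 6 was at 0 in any. Clusters 2 and 6 thus held the most of these transcripts, and cluster 4 followed. Cluster 4 had 3046 RPKM of Col2a1 but 0.504 of Ihh. Within a library Ihh was 0.198% of Col2a1 in cluster 2 (95% interval 0.187% to 0.209%), 0.116% in cluster 6 (0.109% to 0.123%) and 0.0165% in cluster 4 (0.0123% to 0.0218%). The same ratio was 0.255%, 0.208% and 0.219% in clusters 1, 3 and 5 and 0.0802% in cluster 7, and the intervals of clusters 1, 3 and 5 overlapped that of cluster 2. Relative to Col10a1, the collagen of enlarged chondrocytes, Ihh was 4.22%, 2.84%, 6.44%, 1.29%, 5.10%, 3.28% and 1.02% in clusters 1 to 7, in that order, so clusters 2 and 6 were not the highest by this ratio. The higher ratios of clusters 1, 3 and 5 rested on 36, 23 and 13 Ihh reads. Of these, only the interval of cluster 3 (4.03% to 9.81%) lay above those of clusters 2 (2.68% to 2.99%) and 6 (3.09% to 3.48%). The part of chondrocytes in the levels of Ihh and Ptch1 was not tested.

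**Figure D3:**
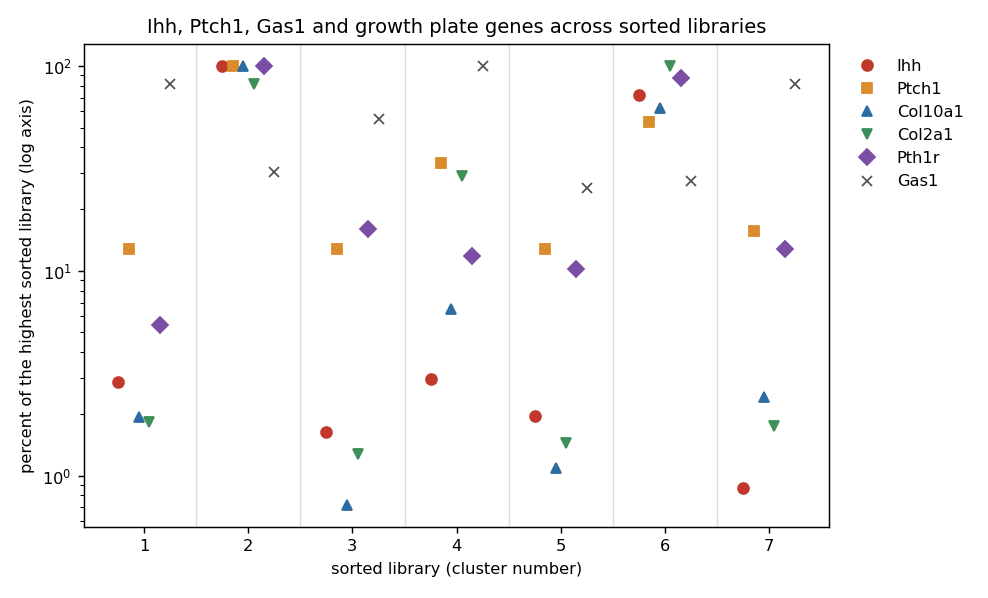
RPKM of Ihh, Ptch1, Gas1, Col10a1, Col2a1 and Pth1r in each sorted library of clusters 1 to 7 as a percent of the highest sorted library of the same gene, on a log axis. Ihh, Col10a1, Col2a1 and Pth1r were above 60% in clusters 2 and 6, while in cluster 4 Col2a1 was at 28.9% and Ihh at 2.96%.

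Both populations also held bone and other transcripts. The summed RPKM of 7 osteoblast markers was 24728 and 22822 in clusters 3 and 6 and 8738 and 6491 in clusters 5 and 2, with Bglap (osteocalcin) the most abundant in these 4, and 1160, 1509 and 685.7 in clusters 4, 7 and 1. Bglap and Bglap2 made up most of the sum in these 4, and the other markers of the list were ordered otherwise. Runx2, Sp7 and Alpl, 3 of the 7, had clusters 2 and 6 as their 2 highest sorted libraries, as Ihh did. Runx2, the transcription factor of the osteoblast lineage that enlarging chondrocytes also express, had an RPKM of 11.1 and 8.24 in clusters 2 and 6 and at most 5.72 (cluster 4) in the others. Alpl, alkaline phosphatase, had 124 and 404 in clusters 2 and 6 and at most 99.5 (cluster 7) in the others. Sp7, a transcription factor of osteoblasts, had 21.7 and 38.6 in clusters 2 and 6, but 20.8 in cluster 3, whose interval overlapped that of cluster 2. Ibsp and Dmp1, which encode proteins of the bone matrix, were highest in cluster 6 (3192 and 415), but cluster 2 (715 and 35.8) lay below cluster 7 for Ibsp and below clusters 3 and 5 for Dmp1. The 5 fibroblast markers summed to 1625 in cluster 2 and 1920 in cluster 6, against 4908 to 6561 in clusters 1, 3, 4 and 7 and 1945 in cluster 5, with Dcn the most abundant throughout. The 5 marrow stromal markers summed to 32.5 in cluster 2 and 23.9 in cluster 6, and to 220 in cluster 4, where Cxcl12 was the most abundant at 139. Gas1 was low in the 3 libraries with low fibroblast sums and high in clusters 1, 4 and 7, which had the 3 highest marrow stromal sums. The 5 smooth muscle and pericyte markers summed to 7.56 in cluster 6 and 99.0 in cluster 7, with Acta2 or Rgs5 the most abundant, and the 5 endothelial markers to between 2.37 (cluster 6) and 11.4 (cluster 1). Of the 6 Schwann cell markers, S100b, which chondrocytes also express, was the most abundant in all libraries, at 114 in cluster 2, while Sox10 was 1.22 in cluster 2, 1.21 in cluster 6 and at 0 in cluster 7. Hba-a1 was the most abundant of the 6 matched haematopoietic markers in all sorted libraries. Apart from Sox10 in cluster 7, no marker of these lists was at 0 in any library. The part of these cell types in the levels of the members was not tested.

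The partners of Ihh in the growth plate loop differed in opposite directions between the populations. Pth1r, the receptor of parathyroid hormone-related protein, had an RPKM of 21.9, 402, 64.6, 47.5, 41.1, 352 and 51.5 in clusters 1 to 7, in that order, and 10.6 in the input. Pthlh, which encodes its ligand, had 55.8, 11.6, 102, 20.6, 13.5, 3.30 and 32.2 in clusters 1 to 7, in that order, and 32.6 in the input. The libraries with high Ihh thus had the 2 highest values of Pth1r and the 2 lowest of Pthlh. Pthlh in cluster 3 exceeded that in cluster 6 31.0-fold (95% interval 26.6 to 36.4).

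Of 43 other genes of the pathway taken as fixed lists, 42 were matched, 31 had RPKM above 2 in at least 1 sorted library and 26 of these 31 (83.9%) passed 2-fold, against 70.6% of 12360 genes. With TMM scaling 19 of 32 did, against 56.8%. The counts by role that follow are by the total count and have the same background of 70.6%, and the median ratio of RPKM + 1 over the 12360 genes was 2.39. Scube1 and Pth1r, 2 of the 31, were above the other 5 sorted libraries in both clusters 2 and 6, and Gpc3, Evc and Pthlh, 3 of the 31, were below them in both, against backgrounds of 5.99% and 6.28%.

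Among genes for ligand and ligand release, 5 of 7 had RPKM above 2 and 4 passed 2-fold. Scube1, a secreted protein of a family that helps release the ligand, had an RPKM of 17.1 and 6.05 in clusters 6 and 2, 3.29 and 1.78 in clusters 4 and 7, and at most 0.784 in clusters 1, 3 and 5. Gpc3, a cell surface proteoglycan that competes with Ptch1 for the ligand, was lowest in clusters 2 and 6, with 81.1, 57.4 and 33.4 in clusters 4, 7 and 1, 15.7 and 13.7 in clusters 3 and 5, and 6.04 and 1.12 in clusters 2 and 6. The ratio of its highest to its lowest library was 72.8 (95% interval 59.4 to 90.1). Boc, a co-receptor, had 54.4, 50.6 and 37.8 in clusters 7, 4 and 1, against 24.3 and 21.2 in clusters 3 and 6 and 14.3 and 13.3 in clusters 5 and 2. Cdon ranged from 2.57 in cluster 6 to 10.1 in cluster 3. Gas1, Boc and Gpc3 thus had clusters 1, 4 and 7 as their 3 highest sorted libraries, and so did 14.5% of 12360 genes. With TMM scaling the same 3 genes had this pattern, against 6.9% of 12682 genes, and Smo had it by the total count only. The 3 clusters were chosen after the values were seen.

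**Figure D4:**
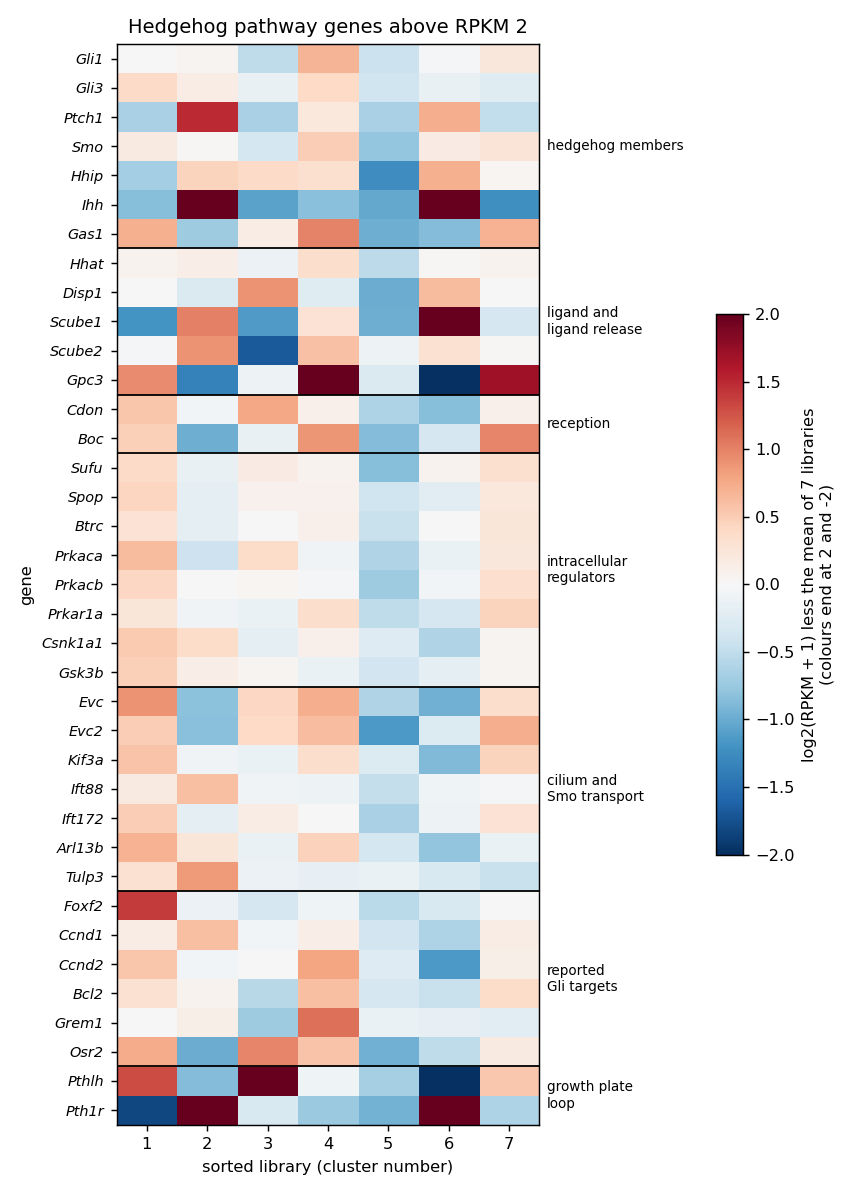
log2(RPKM + 1) of Hedgehog pathway genes above RPKM 2 in at least 1 sorted library, 1 gene left out, less the mean of the gene over the 7 libraries, with sorted libraries of clusters 1 to 7 as columns and genes as rows grouped by role. Red is above and blue below the mean, and the colours end at 2 and -2. Ihh and Pth1r are red in clusters 2 and 6 and Gpc3 in clusters 1, 4 and 7.

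Of 11 intracellular regulators, 8 had RPKM above 2 and 4 passed 2-fold, with a median ratio of RPKM + 1 of 2.06 over the 8, the lowest of the 6 lists. With TMM scaling none of these 4 passed, Sufu and Prkaca included, against 56.8% of all genes tested. Prkar1a, a regulatory subunit of protein kinase A, ranged from 60.2 in cluster 5 to 118 in cluster 7, and Spop, which targets Gli proteins for degradation, from 42.0 in cluster 5 to 75.9 in cluster 1. Prkaca, a catalytic subunit of the same kinase, ranged from 7.39 in cluster 5 to 18.8 in cluster 1. With TMM scaling cluster 2 lay below cluster 5 for Spop (49.2 against 56.8) and for Prkaca (8.56 against 9.99). Sufu, which holds Gli proteins inactive, was 0.740 in cluster 5 and 1.83 to 3.13 in the other sorted libraries. Among genes of the cilium and of Smo transport, 7 of 10 passed both thresholds. Evc and Evc2, which bind Smo at the base of the cilium, were low in clusters 2, 5 and 6, with Evc at 1.40, 1.78 and 1.17 there and between 4.40 and 6.85 in the other 4. Evc2 had 1.82, 1.27 and 3.13 in clusters 2, 5 and 6 and 5.59 to 7.31 in the others. Arl13b ranged from 6.31 in cluster 6 to 19.3 in cluster 1 and Kif3a from 2.29 in cluster 6 to 8.04 in cluster 1. Among 9 reported Gli targets, 8 were matched and 6 passed both thresholds. Osr2 ranged from 14.1 in cluster 2 to 57.7 in cluster 3 and Ccnd2 from 8.91 in cluster 6 to 36.9 in cluster 4, so neither followed Ptch1.

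Across the 7 sorted libraries, Pearson's r of log2(RPKM + 1) between members is given as a description, since all genes of a library share its total. It was 0.922 for Ptch1 and Ihh, 0.883 for Gli1 and Smo, 0.341 for Gli1 and Ptch1, and -0.622 for Ihh and Gas1. Spearman's rank correlation for the same pairs, in that order, was 0.75, 0.857, 0.571 and -0.143. The 3 genes most like Ihh were Rlbp1 (r = 0.995), Slc2a5 (0.989) and Dnajc22 (0.989), chosen by r among 8055 genes (8056 for Gli3) that had a symbol and lay above both thresholds. Those most like Ptch1 were Cox4i2 (0.993), Gjc3 (0.993) and Ninj2 (0.993), each highest in cluster 2, next in cluster 6 and then in cluster 4. Those most like Gas1 were Mill2 (0.996), Aebp1 (0.994) and Gm17057 (0.994). Those most like Smo were 3632451O06Rik (0.994), Pja1 (0.981) and Gcc1 (0.973), and those most like Gli1 were Gprasp2 (0.984), Slc16a1 (0.957) and Gch1 (0.948). Hhip was most like Kdelr2 (0.970), Spsb1 (0.964) and Srprb (0.957), and Gli3 most like Gm6055 (0.953) and 9830001H06Rik (0.936).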

How the data were processed

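For each library the authors deposited counts of reads on the exons of Ensembl genes, not normalized, with exon positions and the exon length. By the study's methods, cells were sorted by flow cytometry and their polyA RNA was sequenced. TopHat2, in Partek Flow 2.2, mapped to mm9 those reads that kept at least 25 bases after quality trimming at Phred 20. The coordinates of the counts are those of GRCm38, since 96.2% of 23289 symbols lay within 10 kb of RefSeq GRCm38.p6. The counting tool and its strand setting are not given in the sources used here. The labels give 1 ug of RNA from crushed marrow and the paper 30 ng from sorted cells.

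RPKM was computed from these counts by the total count on genes. With 1 library per population, edgeR 4.0.16 and DESeq2 1.42.0 gave scaling factors only. Thresholds were RPKM above 2 and RPKM + 1 above 2-fold. The calls were tested on simulated data. Disp1, Foxl1 and Rn18s-rs5 were matched by GRCm38 position (overlap of at least 50%). Genes were named by list, or, within a list, as the 2 highest and the 2 most variable, and by the 3 highest r. Members and lists were chosen with earlier results of these data known. Alternatives were TMM factors, DESeq2 size factors, a pseudocount of 0.1, RPKM above 5 or no filter, totals without 3 loci, omission of cluster 5 and subtraction of the olfactory median. R 4.3.3 and Python 3.11.15 with scipy 1.17.1 and pandas 2.3.3 were used. Single-cell and chromatin data were not used here, and 2 genes that the naming rule covers are not reported here.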

Additional observations from a re-analysis of the deposited data

How the results depend on the processing

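Of 481 recomputed values, 388 were counted as unmoved and 93 as moved. A count had to change by more than 1.5 times, and a level had to leave its counting interval. Some of the 388 could not move. The olfactory median was 0 in all 7 sorted libraries, so its subtraction left their levels as they were. Omission of cluster 5 could not change the counts of the other clusters against the input. The 388 therefore overstate how stable the values were. The ratios of members to the input that had passed 2-fold were all among the 388, although some changed by more than their counting intervals. No such ratio changed direction. Pairs of libraries did turn. Of 203 pairs over the 9 members whose ratio exceeded 1 beyond counting error by the total count, 17 turned with TMM factors, 10 of them against the input and 7 between sorted libraries. Gli3 in the input over cluster 6, for example, went from 1.29 to 0.626. With these factors the full order of the 7 sorted libraries was kept for 2 of the 9 members. The library with the highest level stayed the same for all 9 members under TMM factors, DESeq2 size factors and totals that leave out 3 loci (Rn18s-rs5, mmu-mir-689-2 and Lars2), whereas the lowest stayed the same for 5, 5 and 4 of them. Counts of members 2-fold above the input depended on the scaling. With TMM factors and equally with DESeq2 size factors they were 5, 2, 6 and 4 in clusters 2, 5, 6 and 7, against 3, 0, 3 and 2 by the total count. Without the 3 loci they were 5 in cluster 2 and 1 in cluster 5. With a pseudocount of 0.1 there were 4 in cluster 7, and 2 members, Gli2 and Ptch1, fell 2-fold below the input in at least 1 library, with 1 each in clusters 1, 2 and 3 and 2 in cluster 5, against 0. No paired analysis was possible because there was 1 library for each of the populations, and the spread between sorts is unknown. Dhh and the low values of Ihh are limited by depth, with 5 to 50 reads a sorted library.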
